A study of Rattus norvegicus with 69 samples.

Results

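The acrosome genes followed here are Acr, Acrbp, Zpbp, Actl7b, Acrv1, Spaca3 and Spam1. The genes were chosen with earlier results of these data known. Their probe sets were taken by symbol, as every probe set that the platform's annotation gives to one of these 7 names. Each gene had 1 probe set, so that 7 of 31042 probe sets, and 7 of 14217 genes named on the array, are described. Their NCBI Gene IDs are 24163 for Acr, 500316 for Acrbp, 498415 for Zpbp, 313183 for Actl7b, 60353 for Acrv1, 287557 for Spaca3 and 117037 for Spam1. The study hybridised RNA of Sprague Dawley rats to Affymetrix expression arrays, 1 array for each of 69 samples. Seminiferous tubules had been dissected with transillumination into 10 groups along the cycle, from stage I to stages XIII-XIV. Stages II and III, IV and V, IX to XI and XIII and XIV were pooled, and stage VII was divided into an earlier part (VIIa.b) and a later one (VIIc.d). Each group had 5 samples, except for 4 at IV-V. Every tubule sample pooled 2 rats of 55 to 60 days, with 25 segments from each. The samples titled IX-XI carry the source name IX-XII, so that stage XII tubules may be among them. Isolated cells were profiled as well. The germ cells had been separated by elutriation from dispersed testes, at a stated purity of 85% to 95%, and were spermatogonia together with early spermatocytes (3 samples, rats of 18 to 20 days), then pachytene spermatocytes and round spermatids (4 samples of each, rats of 55 to 60 days). Sertoli cells, 4 samples at about 85% purity, were from rats of 55 to 60 days, and 5 samples of whole testis completed the set, their age not given in the sources used here. Nothing states which animals gave the isolated cells or the whole testis samples, so that p-values measure the spread between these samples.

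The acrosome is a secretory vesicle that caps the sperm nucleus. It is built in round spermatids from Golgi vesicles that fuse into a granule, spread over the nucleus as a cap and are later reshaped as the head elongates, and its contents are released when the sperm meets the egg's coat. In the rat, the cycle of the seminiferous epithelium is divided into stages named by roman numerals: round spermatids lie in the tubules from stage I to VIII, the youngest spermatids elongate from IX on, pachytene spermatocytes are present through most of the cycle, and the meiotic divisions fall at XIV. Tubules of IX to XIV therefore hold spermatocytes and elongating spermatids but no round ones. Proteins of the acrosomal matrix have been described in mammals as appearing in Golgi-derived vesicles as early as pachytene, and others only after meiosis, which is the question of early against late onset put to the 7 genes.

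Acr codes for acrosin, the serine protease stored as proacrosin in the matrix. Acrbp codes for the proacrosin-binding protein, which holds proacrosin and packs it into the granule, and Zpbp for a zona pellucida-binding matrix protein needed in the mouse for a normally shaped acrosome. Actl7b is an actin-like protein of the spermatid head cytoskeleton. Acrv1 codes for SP-10, a protein of the acrosomal vesicle, Spaca3 for a lysozyme-like acrosomal protein, and Spam1 for PH-20, a membrane-anchored hyaluronidase of the sperm head.

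The stretch of 250 bases before the start of the gene was read from RefSeq's table for the assembly GRCr8 for 6 of the 7 genes, all but Spaca3. Printed 5′ to 3′ on the gene's own strand are those of Zpbp and Acrbp, whose pachytene signal was the largest share of their round spermatid signal, those of Acrv1 and Spam1, for which it was small, and that of Acr, which lay between and held a pair of the motifs. Capitals mark 3 motifs on either strand: the cAMP response element's core TGACG, the repeat GTGTGT and the palindrome TGANNTCA, in which N is any base. The Zpbp window held none of them. Positions below are counted back from the start, -1 being the base before it.
Zpbp, chr14:90244438-90244687, - strand: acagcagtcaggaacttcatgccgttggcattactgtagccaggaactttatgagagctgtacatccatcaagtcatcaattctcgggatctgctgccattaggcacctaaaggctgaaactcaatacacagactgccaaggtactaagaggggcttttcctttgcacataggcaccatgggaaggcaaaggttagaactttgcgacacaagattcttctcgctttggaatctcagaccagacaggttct
Acrbp, chr4:159537149-159537398, + strand: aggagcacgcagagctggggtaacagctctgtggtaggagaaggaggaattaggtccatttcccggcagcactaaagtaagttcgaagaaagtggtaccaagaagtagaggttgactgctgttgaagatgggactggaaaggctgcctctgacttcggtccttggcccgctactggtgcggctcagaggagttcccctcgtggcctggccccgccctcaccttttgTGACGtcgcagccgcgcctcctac
Acr, chr7:122517684-122517933, + strand: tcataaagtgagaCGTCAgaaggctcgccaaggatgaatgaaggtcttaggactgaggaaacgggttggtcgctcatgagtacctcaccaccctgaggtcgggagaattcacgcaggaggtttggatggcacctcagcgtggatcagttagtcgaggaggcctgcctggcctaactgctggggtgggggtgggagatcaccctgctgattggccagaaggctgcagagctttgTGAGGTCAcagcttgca
Acrv1, chr8:44592996-44593245, + strand: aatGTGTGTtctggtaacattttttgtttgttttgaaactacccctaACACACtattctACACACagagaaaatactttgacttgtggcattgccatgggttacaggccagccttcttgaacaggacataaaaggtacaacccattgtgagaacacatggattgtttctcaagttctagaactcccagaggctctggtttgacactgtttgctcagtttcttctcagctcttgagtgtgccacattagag
Spam1, chr4:54268037-54268286, + strand: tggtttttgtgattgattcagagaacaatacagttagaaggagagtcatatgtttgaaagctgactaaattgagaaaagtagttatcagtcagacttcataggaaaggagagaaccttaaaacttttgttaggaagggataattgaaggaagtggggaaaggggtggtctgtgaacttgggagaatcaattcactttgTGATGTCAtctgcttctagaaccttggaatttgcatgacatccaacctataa
TGACG, the core of the cAMP response element that spermatid CREM binds, was searched on both strands and stood in 2 of the 6 windows and in 19.0% of 27457 such windows. Acrbp held it from -24 to -20 on the gene's strand and Acr from -237 to -233 on the other. The palindrome TGANNTCA, the same element with its middle left free, was added after the windows had been read. It began at -52 in Spam1, at -65 in Actl7b and at -17 in Acr, and stood in 13.2% of all windows. GTGTGT, the repeat for which the mouse Acrv1 promoter is known, stood in Acrv1 at 3 places and in Actl7b at 1, against 13.5% of all windows. The MYB core AACNG was in all 6 windows, but also in 75.2% of all windows. A GC box, GGGCGG, was in the Acrbp window alone among the 6 and in 32.4% of all, and neither the RFX motif GTTGCC (9.90% of all) nor TATAAA (13.1% of all) occurred in any of the 6. None of these motifs was held by Zpbp and Acrbp and missing from Acrv1 and Spam1, or the reverse, and a match describes these letters only.

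All values are array signals computed with MAS5, linear, and scaled so that the mean of each array, with 2% of probe sets cut at each end, was 100. Signals of one gene can be compared between samples, whereas signals of different genes, read by different probes, cannot. The table gave signals without a call of presence or absence. A signal under 43.7, the median of the whole table, was therefore not taken as shown to lie above background. Array medians ran between 30.9 and 58.2. The signal of the 3′ over the 5′ probe set of actin, a measure of RNA and labelling quality, was over 2.5 on 6 arrays: stage VIIc.d replicates 2 and 3, IX-XI replicates 2 and 3, pachytene replicate 1 and spermatogonia replicate 3. Leaving these out, an alternative chosen after seeing the data, changed no count of members called but that between adjacent stages, 15 in place of 13.

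All 7 genes had reached a higher signal by pachytene. Acr gave 256, 537, 544 and 150.2 in pachytene spermatocytes against 7.43, 2.09 and 3.52 in spermatogonia plus early spermatocytes, where it was below the table's median in every sample. Zpbp gave 1165, 982, 1053 and 1070.2 in pachytene spermatocytes against 55.5, 50.7 and 13.9, and Actl7b gave 442, 375, 446 and 452 against 16.3, 9.63 and 31.2. For Acrbp the pachytene signals were 838, 826, 869 and 1005, against 73.3, 87.4 and 114 in the younger cells. None of these groups overlapped.

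The remaining genes were higher in pachytene too, but at low signals. Acrv1 lay between 126 and 251 in pachytene spermatocytes and between 25.6 and 63.6 in spermatogonia plus early spermatocytes. Spaca3 had 154 to 263 in pachytene spermatocytes and 40.2 to 66.0 in the younger cells, and Spam1 119 to 313 against 16.8 to 20.9. Changes were tested with limma on log2(signal + 5.11) over every probe set that exceeded 43.7 in at least 3 samples of the fit, and called at an adjusted p under 0.05 with at least 2-fold. By that rule 7 of 7 were higher in pachytene spermatocytes, where 18.5% of the 20253 probe sets tested were higher and 28.6% lower. The log2 differences, which understate the change of dim probe sets, were 4.74 ± 0.29 for Zpbp (SE, limma adjusted p = 4.82e-11), 3.22 ± 0.14 for Acrbp, 2.32 ± 0.33 for Acrv1 and 1.96 ± 0.25 for Spaca3 (adjusted p = 1.04e-06). Of the 3 samples of the younger cells, 2 for Acrv1 and 1 each for Zpbp and Spaca3 were under 43.7. With these raised to 43.7 and no constant added, the folds were 4.09 for Acrv1, 21.4 for Zpbp and 4.08 for Spaca3. Acr, Actl7b and Spam1 lay below 43.7 in every sample of the younger cells, which leaves a bound only: against 43.7 they were at least 7.45-fold (adjusted p = 6.37e-10), 9.78-fold (3.95e-10) and 5.05-fold (5.00e-07) higher in pachytene spermatocytes. Age cannot be told apart from cell type here, since the younger cells came from younger rats. That preparation also held signal of other cells: 5 of 5 Leydig cell markers exceeded the table's median, with a summed signal of 5844 to 9200 against 156 to 324 in pachytene spermatocytes, and 8 Sertoli cell markers summed to 2944 to 4191 against 594 to 863. Their part in the result was not tested.

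From pachytene spermatocytes to round spermatids the genes parted. Zpbp gave 1524, 1502, 1597 and 1578 in round spermatids against 1165, 982, 1053 and 1070.2 in pachytene spermatocytes. Although the groups did not overlap, the log2 difference of 0.54 (95% confidence interval -0.02 to 1.10, limma adjusted p = 0.115) did not pass. Acrbp gave 1822, 1802, 1847 and 1831 in round spermatids against 838, 826, 869 and 1005, a log2 difference of 1.05 ± 0.13 (SE, limma adjusted p = 2.29e-06) that just reached 2-fold. With quantile normalization it was 0.95 and missed the fold required. Pachytene signal thus stood at 68.9% ± 4.85 of the round spermatid mean for Zpbp and at 48.5% ± 4.52 for Acrbp (SD over the 4 pachytene arrays).

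At the other end stood Acrv1, Spaca3 and Spam1, which were low in pachytene spermatocytes. Spaca3 gave 1689, 1696, 1699.7 and 1686 in round spermatids against 236, 218, 263 and 154 in pachytene spermatocytes, and its log2 difference was 2.95 ± 0.23 (SE, limma adjusted p = 4.88e-09). Spam1 gave 1786, 1661, 1769 and 1868 in round spermatids against 236, 272, 313 and 119 in pachytene spermatocytes (2.97 ± 0.36, adjusted p = 1.41e-06). Acrv1 gave 1511, 1603, 1547 and 1518 against 226, 236, 251 and 126 (2.90 ± 0.31, adjusted p = 2.80e-07). The pachytene signal was 12.9% ± 2.74, 13.3% ± 4.72 and 13.6% ± 3.67 of the round spermatid mean for Spaca3, Spam1 and Acrv1. Pachytene replicate 4 was the lowest of its group for all 3, and also for Acr, but the highest for Acrbp and Actl7b.

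Actl7b and Acr lay between. Actl7b gave 1325, 1357, 1399 and 1418 in round spermatids against 442, 375, 446 and 452 in pachytene spermatocytes, a log2 difference of 1.67 ± 0.28 (SE, limma adjusted p = 5.92e-05) and a pachytene share of 31.2% ± 2.60. Acr gave 1386, 1468, 1474 and 1097 in round spermatids against 256, 537, 544 and 150.2 in pachytene spermatocytes, which is 2.03 ± 0.35 (adjusted p = 8.67e-05). Its 4 pachytene arrays spread over a share of 11.1% to 40.1%, from the level of the low genes to above that of Actl7b. In all, 6 of 7 genes were called higher in round spermatids, with Zpbp the exception, where 8.9% of probe sets tested were, and their median log2 difference was 2.03 against -0.06 over all 20253.

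**Figure D1:**
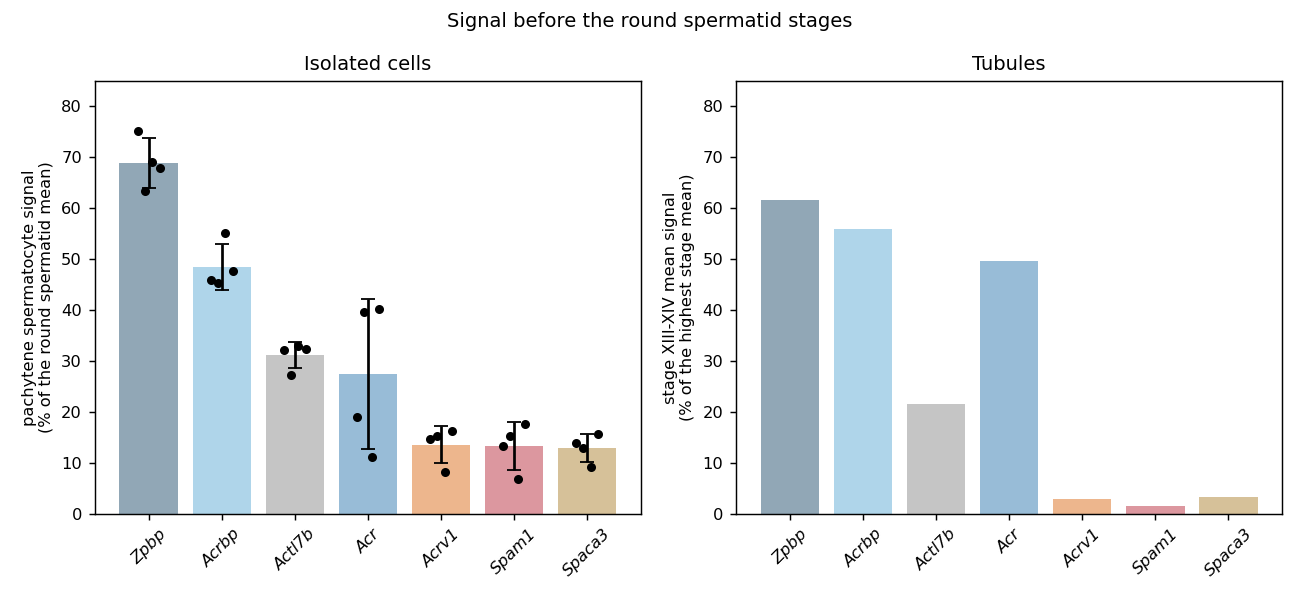
Left, the pachytene spermatocyte signal of each gene as a percent of its round spermatid mean (bars and whiskers, mean and SD of 4 arrays, points single arrays); right, the stage XIII-XIV mean as a percent of the gene's highest stage mean. Zpbp and Acrbp stand at 68.9% and 48.5% on the left, Acrv1, Spam1 and Spaca3 near 13% on the left and under 4% on the right.

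Whether the change from pachytene spermatocytes to round spermatids differed between genes was tested for the 21 pairs of genes. The change of one gene minus that of the other was taken between 4 round spermatid and 4 pachytene samples. It was put to an exact two-sided permutation test over the 70 assignments of the group labels. Such a test compares preparations and does not time the onset. In 16 pairs the groups did not overlap and p was 0.0286, the smallest 70 assignments can give (0.0375 after Benjamini-Hochberg adjustment over the 21). Pairs of other genes were not tested, so that how common such a count is over all genes is not known. Zpbp changed less than every other gene, by a log2 difference of 0.51 against Acrbp, 1.13 against Actl7b, 1.49 against Acr and 2.36 to 2.43 against Acrv1, Spaca3 and Spam1. Acrbp changed less than those last 3 genes by 1.85 to 1.92 and less than Actl7b by 0.63, and Actl7b less than the same 3 by 1.22 to 1.30. Among Acrv1, Spaca3 and Spam1 the differences were 0.07 or less in size (exact permutation test, adjusted p = 0.6, 0.6 and 1). Acr could not be separated from Acrbp (0.98, adjusted p = 0.106 by the same exact test) or from Actl7b (0.35, adjusted p = 0.6), but changed less than Acrv1, Spaca3 and Spam1 by 0.87 to 0.94. The order Zpbp, Acrbp, Actl7b, then the 3 low genes was thus separated at each step, with Acr between Zpbp and the low genes.

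**Figure D2:**
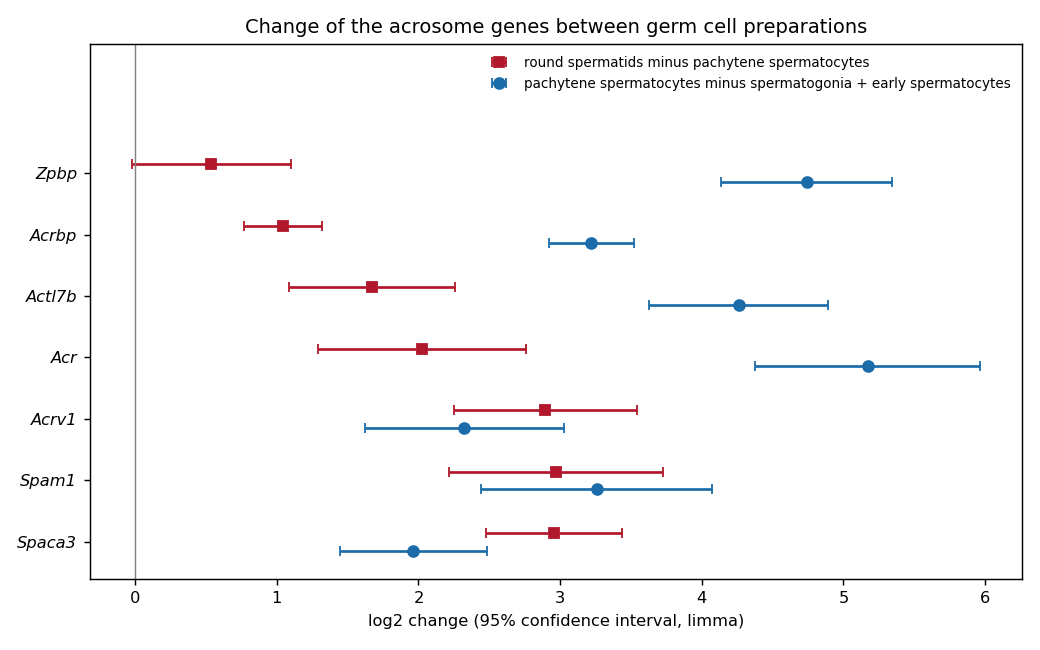
Log2 change of each gene (limma, with its 95% confidence interval) in round spermatids minus pachytene spermatocytes (squares) and in pachytene spermatocytes minus spermatogonia plus early spermatocytes (circles). The squares move away from 0 from Zpbp (0.54) to Spam1, Spaca3 and Acrv1 (2.90 to 2.97), whereas no such order is seen in the circles. The younger cells lay below 43.7 in every sample for Acr, Actl7b and Spam1, and in part of the samples for Acrv1, Zpbp and Spaca3. The circles of these genes depend on the constant added.

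Spermatid transcripts were present in the pachytene preparation. Of 7 markers of later spermatids, which code for proteins such as the transition proteins and protamines that pack sperm DNA, 7 were higher in pachytene spermatocytes than in spermatogonia plus early spermatocytes, and their summed signal was 10118 to 14766 in pachytene spermatocytes against 94.9 to 155 in those cells. In round spermatids the sum was 25010 to 31216. Their pachytene signal as a share of the round spermatid mean ran from 20.9% for Prm2 to 74.7% for Prm1, above the shares of Acrv1, Spaca3 and Spam1. The shares of Acr (27.4%), Actl7b (31.2%), Acrbp (48.5%) and Zpbp (68.9%) lay within that range. Of 3 round spermatid markers, Tekt5 had a pachytene share of 10.2% (452 in round spermatids against 45.9 in pachytene spermatocytes) and Tssk2 of 16.9%, on either side of those 3 members, but Catsperz of 96.9%. Together the 3 markers summed to 4888 to 5321 in round spermatids against 2237 to 2693 in pachytene spermatocytes. Sertoli cells, which make no acrosome, likewise had a later spermatid sum of 1723 to 7210, beside a sum of 268 to 512 for the 7 members (single signals 9.67 to 136). How much of the pachytene signal of each acrosome gene came from spermatids in the preparation was not tested. The 3′ over 5′ ratio of GAPDH also differed, at 2.13 ± 0.31 in round spermatids and 1.22 ± 0.19 in pachytene spermatocytes (SD, n = 4 each), and its part was not tested.

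Along the tubule all 7 genes varied. All 7 were stage-regulated, by which is meant an adjusted p under 0.05 in limma's F-test and at least 2-fold between the highest and the lowest stage mean, where 32.5% of 22258 probe sets tested were. The span was at least 61.9-fold for Spam1, whose lowest stage, XII, was below 43.7 in every sample and is set at that limit. It was 34.3-fold for Acrv1, 28.8-fold for Spaca3, 6.50-fold for Actl7b, 4.19-fold for Acr, 3.33-fold for Zpbp and 2.49-fold for Acrbp, with adjusted p of 9.90e-12 for Acr and lower for the others. In bulk tubules, fewer cells of a type and less RNA per cell cannot be told apart. The highest mean fell at VI for Zpbp, Actl7b, Acrv1, Spaca3 and Spam1, and at IV-V for Acr and Acrbp. For Acrbp that peak was 2078 ± 89.7 at IV-V (SD, n = 4) and 2072 ± 145 at VI (n = 5), which do not differ beyond their spread. Acr had 1209 ± 129 at IV-V and 978 ± 330 at VI, and this difference did not pass (limma adjusted p = 0.502). Its medians in these stages, 1225 and 1194, lay close together, so that an earlier peak of Acr is not shown.

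**Figure D3:**
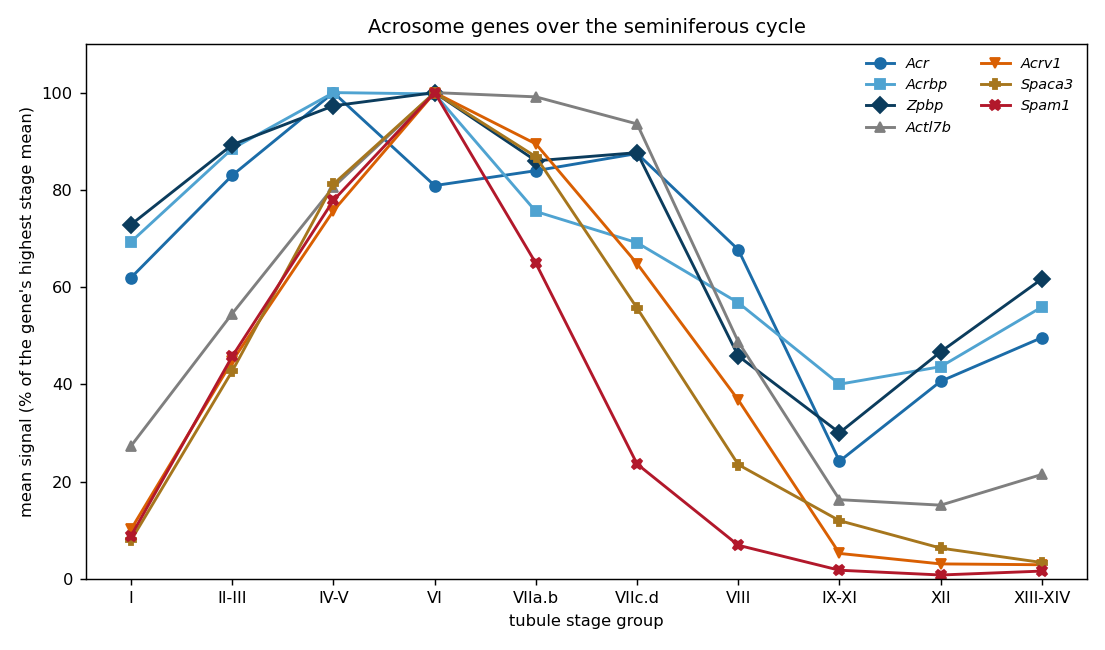
Mean signal of each gene in the 10 stage groups, as a percent of the gene's own highest stage mean. Acr, Acrbp and Zpbp keep 24.2% or more of their peak in every stage and have higher means at XIII-XIV than at IX-XI, whereas Acrv1, Spaca3 and Spam1 lie under 4% at XIII-XIV.

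At XIII-XIV, the last tubules before new round spermatids, Zpbp still gave 788, 939, 984, 1470.2 and 1342, or 61.7% of its peak mean. Acrbp stood at 55.9% of its peak there and Acr at 49.6%. Actl7b had 21.5%. By contrast, the XIII-XIV signal was 3.35% of the peak for Spaca3, 2.89% for Acrv1 and 1.58% for Spam1, whose samples of 78.3, 33.6, 16.5, 42.5 and 43.8 reached the table's median in 2 of 5 cases. Acr, Acrbp and Zpbp had their lowest mean at IX-XI, at 24.2%, 40.0% and 30.0% of the peak. Acr at XII was 1.70-fold higher than at IX-XI (adjusted p = 0.0113) and Zpbp 1.54-fold higher (0.00181), while Acrbp at XIII-XIV was 1.28-fold higher than at XII (0.000202), all under the 2-fold limit. Acrv1 and Spaca3 had their lowest means at XIII-XIV and Spam1 at XII. Spaca3 at XIII-XIV was 1.85-fold lower than at XII (adjusted p = 0.00054), and Actl7b 1.40-fold higher (0.00172).

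At stage I, where new round spermatids enter, the genes of low pachytene signal stood out. Stage I samples of Spam1 gave 243, 143, 152, 324 and 337, against 78.3, 33.6, 16.5, 42.5 and 43.8 at XIII-XIV, without overlap (limma adjusted p = 6.17e-08), and 4.57-fold higher with the 3 XIII-XIV samples under 43.7 raised to it. Acrv1 was 3.44-fold and Spaca3 2.22-fold higher at I than at XIII-XIV. These 3 were the members called there, where 0.867% of probe sets were called higher and 0.53% lower. The same 3 were called higher at II-III than at I, where 2.33% of probe sets were higher and 1.31% lower. At II-III Spam1 gave 1252, 1035, 929, 1438 and 1554 against its stage I values, 5.32-fold higher. Spaca3 rose 5.32-fold as well and Acrv1 4.37-fold, and no II-III sample of the 3 overlapped a stage I sample. In II-III, replicates 4 and 5 stood above the others for Spaca3 (1939 and 1718 against 871 to 1058), Actl7b (1406 and 1404 against 799 to 937), Acrv1 (1409 and 1477 against 862 to 1125) and Spam1 (1438 and 1554 against 929 to 1252). Stage I replicates 4 and 5 were likewise the highest for Acrv1, Spaca3 and Spam1. With these 4 arrays left out, an alternative chosen after seeing the data, II-III stayed 4.39-fold, 5.34-fold and 5.97-fold above I for Acrv1, Spaca3 and Spam1, all called, but Spaca3 at I was 1.71-fold above XIII-XIV and no longer called. Actl7b was 1.94-fold higher at II-III than at I (adjusted p = 1.58e-09), short of the limit, and Acr, Acrbp and Zpbp were 1.23-fold to 1.34-fold higher, of which Acrbp passed the adjusted p (9.45e-05).

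**Figure D4:**
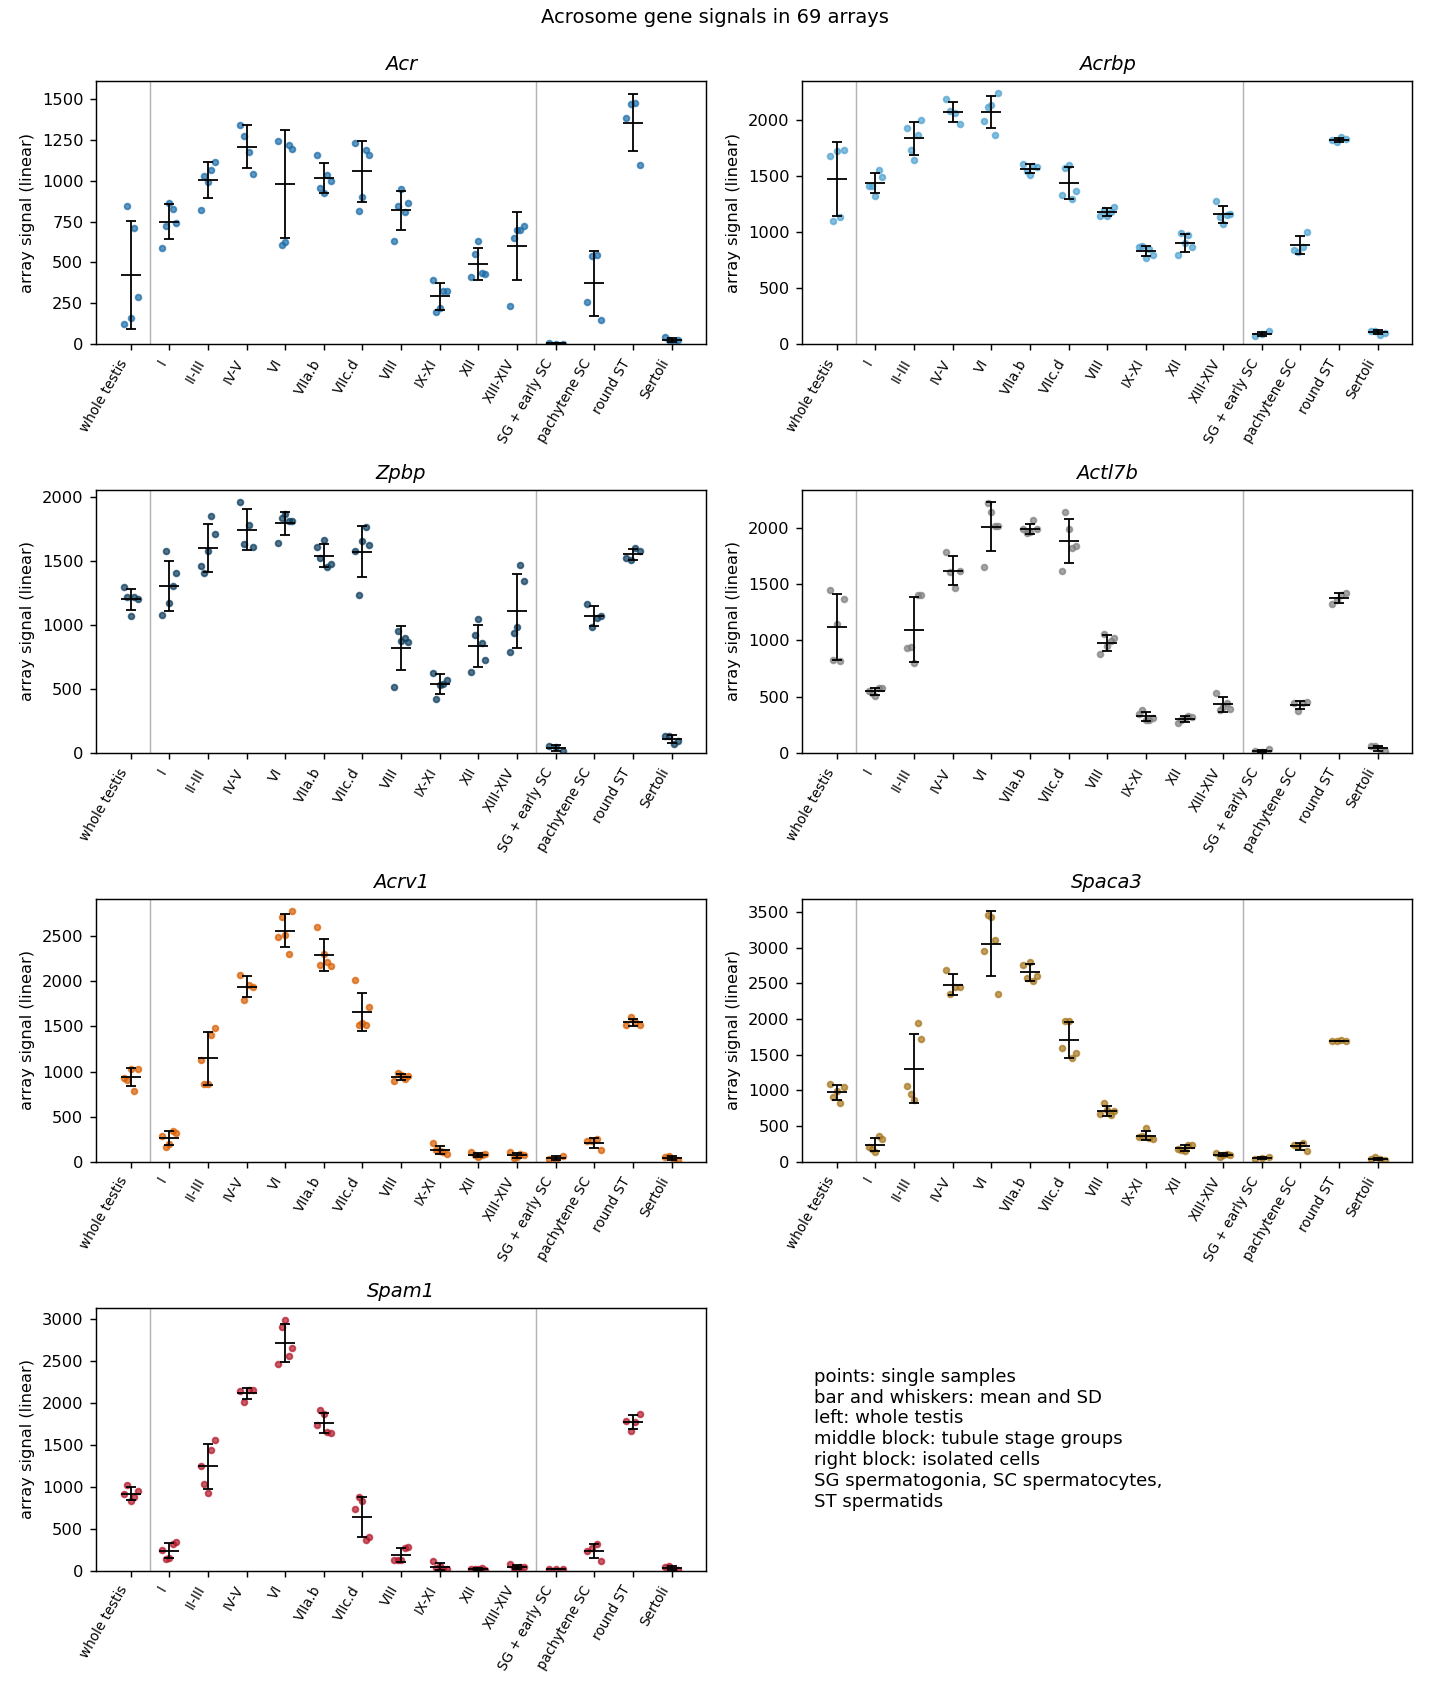
Array signal of the 7 genes on a linear scale, 1 panel per gene: whole testis, the 10 stage groups and the isolated cells, with points for single samples and bars for mean and SD. Whole testis samples of Acr split between 123 and 844, and Spam1 has left its peak by VIIc.d, with 366 to 873.

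On the way down, Acrbp was already 1.32-fold lower at VIIa.b than at VI (limma adjusted p = 2.10e-05), and Spam1 was the first gene to pass the 2-fold limit. It gave 733, 873, 827, 366 and 403 at VIIc.d against 1737, 1910.4, 1867, 1648 and 1639.8 at VIIa.b, 2.91-fold lower (limma adjusted p = 0.00034), and was the member called at that step, where 0.503% of probe sets were lower and 0.616% higher. Its VIIc.d replicates 4 and 5 lay just above the highest stage I sample (337). At VIII, Spam1 had 125 to 132 in replicates 1 to 3 and 269 and 278 in replicates 4 and 5, which had been the lower ones at VIIc.d. Spam1 was 3.37-fold lower at VIII than at VIIc.d, and Spaca3, with 652 to 831 at VIII against 1447 to 1973 at VIIc.d, 2.35-fold lower. Those 2 were the members called at that step (background 0.297% lower and 0.234% higher). Actl7b (1.91-fold), Zpbp (1.94-fold), Acrv1 (1.75-fold) and Acrbp (1.21-fold) were lower at VIII too, with adjusted p under 0.05 but under the fold limit. Between IX-XI and VIII, 4 genes were called lower where 2.46% of probe sets were lower and 0.948% higher: Acrv1 by 7.10-fold (86.8 to 210.5 at IX-XI against 898 to 985 at VIII), Spam1 by 3.19-fold with the 3 IX-XI samples under 43.7 raised to it, Actl7b by 2.98-fold and Acr by 2.83-fold. At VIII, the last stage with round spermatids, the mean was thus 67.7% of the peak for Acr, 56.8% for Acrbp, 48.7% for Actl7b, 45.8% for Zpbp, 36.8% for Acrv1, 23.5% for Spaca3 and 6.89% for Spam1. At IX-XI, Spaca3 (1.96-fold), Acrbp (1.42-fold) and Zpbp (a log2 difference of -0.58) were lower as well, with adjusted p under 0.05 and under the fold limit. Whether the genes differ in when they decline was not tested.

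Over the 10 steps around the cycle, 13 of 70 tests were calls, all named above. No member was called at the other 5 steps. Between IV-V and II-III, where 1.3% of probe sets were higher and 0.822% lower, Spaca3 (1.999-fold), Acrv1 (1.73-fold) and Actl7b (1.51-fold) were higher at IV-V with adjusted p under 0.05. Between VI and IV-V (0.283% higher, 0.184% lower) no member had an adjusted p under 0.05, and between VIIa.b and VI (1.42% higher, 0.746% lower) only Acrbp had one. The backgrounds were 0.642% higher and 0.692% lower for XII against IX-XI, and 0.368% higher and 0.566% lower for XIII-XIV against XII. Taken as blocks, each the mean of the log2 stage means, stages I-VIII were higher than IX-XIV for Acr, Actl7b, Acrv1, Spaca3 and Spam1, 5 of 7 genes where 3.44% of probe sets were called higher and 2.39% lower, with log2 differences of 1.16, 1.90, 3.76, 2.75 and 4.52, the last against IX-XIV signals of Spam1 mostly under 43.7. Acrbp (0.76) and Zpbp (0.87) passed the adjusted p and not the fold. Later round spermatid stages, VI-VIII, against I-V gave 1 call, Acrv1 (1.08, adjusted p = 2.03e-12), where 3.35% were called higher and 2.38% lower. Spaca3 had 0.98 there, just short of 2-fold, and passed the limit, at up to 1.04, when any of stage I replicate 4 or 5, II-III replicate 4 or 5 or VI replicate 5 was left out, which made 2 calls. With stage means averaged on the linear scale Acrv1 averaged 1864 in VI-VIII against 1116 in I-V, 1.67-fold, so that 0 genes reached 2-fold. Spam1, high at IV-V and low by VIII, had 0.01 in that contrast.

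Across all 15 groups, spermatogonia plus early spermatocytes and Sertoli cells were among the lowest for every gene, Spam1 being as low at stage XII. Signals under 43.7 have no order. Acr was highest in round spermatids, at 1356 ± 177 (SD, n = 4), which overlapped stage IV-V at 1209 ± 129, and neighbours overlapped all the way down to IX-XI, at 292 ± 81.2, above Sertoli cells. In the order of Spam1 levels, stage VI stood above IV-V with no overlap, then came round spermatids (1771 ± 85.0) and VIIa.b (1760.5 ± 124), which overlapped, and II-III, whole testis and VIIc.d, which also did. Acrv1 was highest at VI and VIIa.b, which overlapped each other but not IV-V below them. For Spaca3, VI, VIIa.b and IV-V overlapped in a chain above VIIc.d and round spermatids, for Actl7b, VI, VIIa.b, VIIc.d and IV-V did so above round spermatids, and for Acrbp, IV-V, VI, II-III and round spermatids did so above VIIa.b. Zpbp showed no gap between neighbours from VI down to IX-XI. The pachytene mean lay below that of stage XII for Acr and Acrbp and above it for the other 5.

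Whole testis can be set against the stages in more than one way. Spam1 gave 919, 1026, 831, 879 and 944 in whole testis, a mean of 919.8 against 901 for the plain mean of the 10 stage means, and no gene differed 2-fold on that linear scale, which was chosen after seeing the data and not tested. Acrv1 averaged 936 in whole testis against 1109 over the stages, Spaca3 972 against 1282 and Acr 424 against 821. The limma fit instead used the mean of log2 stage means, which lies far below the plain mean for a gene of wide span. It called Spam1 higher (2.79-fold, adjusted p = 2.95e-07, background 2.31% higher), and Acrv1 and Spaca3 had positive differences (0.70 and 0.38), a direction that turned on the linear scale. Acr was called lower by that fit, at -1.21 ± 0.22 (SE, adjusted p = 2.39e-05, background 1.2% lower), but its samples lay far apart. Replicates 2 and 4 gave 844 and 713 and replicates 1, 3 and 5 gave 123, 157 and 286, and the call was lost without replicate 1 (-0.87) or replicate 3 (for Acr, whole testis minus the mean of the stages then was -0.96). The same replicates 2 and 4 were the low ones for Acrbp, at 1104 and 1133 against 1681 to 1736, and for Actl7b, at 824 and 817 against 1146 to 1443. Zpbp, at 1218 and 1219 against 1068 to 1292, did not follow the split. The actin 3′ over 5′ ratio was 1.69 and 1.95 in replicates 2 and 4. It was 2.47, 1.87 and 2.12 in replicates 1, 3 and 5, and its part was not tested. Replicates 2 and 4 also had the lower sums of 8 Sertoli cell markers (4957 and 5215 against 6799 to 7465). The same held for 4 genes listed for spermatogonia and early spermatocytes (322 and 329 against 610.4 to 648). Those 4 genes, however, summed to 1412 to 1780 in isolated Sertoli cells and to 756 to 1124 in spermatogonia plus early spermatocytes. Their sum therefore does not single out the latter cells. The part of either sum was not tested.

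Acr was also uneven within other groups. At VI its replicates 2 and 3 gave 609 and 624 and the rest 1194 to 1245, a coefficient of variation of 33.8% where Acrbp had 6.99% and Zpbp 4.96% in the same arrays. At XIII-XIV replicate 1 gave 232 and the rest 648 to 721, and in pachytene spermatocytes the coefficient was 53.6% for Acr against 35.6% for Spam1, 27.0% for Acrv1, 21.3% for Spaca3 and 7.04% to 9.32% for Acrbp, Zpbp and Actl7b. Correlations of the stage means, which share arrays and tissue, were highest between Actl7b and Acrv1 (r = 0.97 over 10 stages) and lowest between Zpbp and Spaca3 (0.65).

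Among 12509 other genes with a tested probe set, those whose log2 group means ran most like a member's over the 15 groups were, for Acr, Sirt2, Ribc2 and Samd8 (r = 0.98 each) and, for Acrbp, Heatr4, Dcp1b and C3h20orf96 (0.99 each). Zpbp was followed most closely by Svip, Tekt1 and Ndufs6 (0.98 to 0.99), and Actl7b by Saysd1, C5h1orf185 and Zdhhc19 (0.98 to 0.99). For Acrv1 they were Prr27, Vezt and Samt3 (0.99 each), for Spaca3 Tnnc1, Got1l1 and Car8 (0.98 to 0.99), and for Spam1 Ccdc81, Grm3 and Tmem89 (0.97 to 0.98). Ndufs6, a subunit of respiratory complex I, had a mean of 1605 in round spermatids against 1452 in pachytene spermatocytes, and Tmem89 739.6 against 31.8.

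Other genes of acrosome formation were read against shares of 8.9% higher and 13.1% lower in round spermatids over all probe sets tested. Among further genes listed for the acrosome matrix, 7 of 12 tested were higher in round spermatids and 0 lower (median log2 difference 1.15). Being listed does not place a gene's product there. Ace, the testis form of angiotensin-converting enzyme, averaged 1519 ± 181 in round spermatids against 152 ± 27.3 in pachytene spermatocytes (SD, n = 4 each), and Prss37, a serine protease homologue, 1097 ± 170.1 against 136 ± 25.2. Lyzl6, lysozyme-like as Spaca3 is, had 911 ± 54.6 against 156 ± 43.7, and Gapdhs, a listed gene known rather for the sperm-specific glycolytic enzyme of the flagellum's fibrous sheath, 4104 ± 575 against 1029 ± 108. Zpbp2, the paralogue of Zpbp and named after its values were seen, had 788 in round spermatids against 660.1 in pachytene spermatocytes and no call, with a pachytene share of 83.8%. Prss37 peaked at IX-XI and not at VI, so that the genes listed for the matrix did not share one time course.

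Of genes for acrosomal membranes and fusion with the egg, 3 of 5 tested were higher in round spermatids (Tmem81, Spaca6 and Cd46) and 0 lower. Tmem81, a membrane protein, averaged 894 ± 65.9 in round spermatids against 134 ± 24.5 in pachytene spermatocytes. It was 31.8-fold higher at VI than at XII, where its signal of 54.8 ± 22.4 lay close to 43.7. Of 20 genes tested from a list for Golgi traffic to the acrosome, not all of them traffic genes, 3 were higher and 4 lower (median -0.23), shares not far from those over all probe sets. Fam209, Spaca9 and Zdhhc19 were higher, and Gopc, a Golgi protein without which mouse spermatids make no acrosome, averaged 78.7 ± 9.62 in round spermatids against 292 ± 16.2 in pachytene spermatocytes. In the acroplaxome and perinuclear theca, which fix the acrosome to the nucleus, 3 of 8 were higher (Spata46, H2bl1 and Capza3) and 0 lower, and in the machinery of acrosomal exocytosis 2 of 13 (Plcd4 and Nsf) and 0 lower. Of transcription regulators of spermatocytes and spermatids, 4 of 16 were higher and 6 lower. Rfx1 averaged 807 ± 43.5 in round spermatids against 105 ± 19.1 in pachytene spermatocytes. Taf7l, a testis form of a general transcription factor subunit, had 154 ± 14.9 against 27.7 ± 7.81, the latter under 43.7. Taf7l was higher still in spermatogonia plus early spermatocytes, at 465 ± 47.7, and in Sertoli cells, at 362. Yy1, a zinc finger factor, averaged 80.5 ± 4.72 in round spermatids against 605 ± 37.2 in pachytene spermatocytes, and Mybl1, which drives pachytene transcription in the mouse, 109 ± 18.6 against 736 ± 58.4.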

How the data were processed

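The deposited file held a signal intensity per probe set for each of 69 arrays. Per the submitters' processing notes the authors used MAS5, its version not given in the sources used here. Every array of the deposited intensities had a mean of 100 once the top and bottom 2% of values were trimmed. Per the labels' protocols, RNA was extracted with Trizol and labelled as cRNA. Of 31099 probe sets, 57 controls were left out. Symbols came from the platform annotation, brought up to date through RefSeq's GRCr8 gene table.

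Groups came from the sample titles. Signals were analysed as log2(signal + 5.11), where the constant is the 10th percentile of all signals, with limma 3.58.1 (lmFit, eBayes with trend) under R 4.3.3, and read with the package data.table, version 1.17.8. Probe sets above 43.7 in at least 3 samples of a fit were tested, with Benjamini-Hochberg adjustment within each contrast, two-sided, and calls needed an adjusted p under 0.05 and 2-fold. Separate fits held the 49 tubule samples, the 15 isolated cell samples, and tubules with whole testis. The tests were checked on simulated data. Members and gene lists were chosen with earlier results of these data known. From each list up to 4 genes were named, those called with the largest change between round spermatids and pachytene spermatocytes, and for each member the 3 genes of highest correlation over group means. Exact permutation tests, motif searches and figures used Python 3.11.15, pandas 2.3.3, numpy 2.4.6 and matplotlib 3.10.9. Alternatives were other constants (1 and the table's median), quantile normalization, no filter, no variance trend, all samples in one fit, the replicate number as a block, leaving out each sample, and, chosen after seeing the data, leaving out arrays with an actin ratio over 2.5, leaving out replicates 4 and 5 of stages I and II-III, and averaging stages on the linear scale. Where every sample of the lower group was under 43.7, the fold is a bound, with those samples set at 43.7. Samples under 43.7 were likewise raised for Spam1 at IX-XI and XIII-XIV, and for Acrv1, Zpbp and Spaca3 in the younger cells. Acrv1 at XIII-XIV, with 1 of 5 samples under 43.7, kept its limma fold. Folds with raised samples come from means of log2 signals without the constant, unlike the limma folds. Precision is limited by group sizes of 3 to 5 arrays.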

Additional observations from a re-analysis of the deposited data

Results flagged for a closer look

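In 6 of 98 sets of 4 or 5 arrays, a set being 1 gene in 1 group, a single array stood apart from the others by more than Dixon's test allows at the 95% level, where chance alone gives about 1 in 20. Acr at stage XIII-XIV was lowest in replicate 1, at 232 against 648 to 721 in the others. Zpbp was lowest in replicate 1 both at VI (1638 against 1808 to 1866) and at VIII (516 against 864 to 951). Actl7b was lowest in pachytene replicate 2, at 375 against 442 to 452. Spaca3 was highest in IX-XI replicate 3, at 471 against 322 to 355, an array with an actin 3′ over 5′ ratio of 2.72. Spam1 at IV-V was lowest in replicate 3, at 2008 against 2137 to 2155.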

How the results depend on the processing

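The counts of called members kept within 1.5 times of those reported under other constants, quantile normalization, no filter, no variance trend, all samples in one fit and the replicate number as a block, apart from the gene pairs under the block. Quantile normalization moved the pachytene share of Zpbp to 77.8% and took Acrbp in round spermatids minus pachytene spermatocytes to 0.95, below the fold required. Whether replicate numbers pair the samples is not stated in the sources used here. Deviations of same-numbered samples correlated at a mean of 0.057 over stages (lowest -0.10), against -0.014 for different numbers. Between round spermatid and pachytene samples the correlations were 0.029 to 0.085 over the 4 shared numbers, against a mean of -0.016 for different numbers. They were small but higher for the same number, so that pairing is not settled. With the replicate block, as sign flips over 4 pairs, 0 of 21 gene pairs passed, because such a test cannot reach 0.05. Near-zero differences changed sign: Spam1, stages VI-VIII minus stages I-V, went to -0.024 (quantile normalization), -0.0078 (replicate block) and -0.069 (high-actin arrays left out), Acr, stages VI-VIII minus stages I-V, to 0.019 and Zpbp, whole testis minus the mean of the stages, to -0.016 (both with high-actin arrays left out). Averaging stages on the linear scale, chosen after seeing the data, left 0 members at 2-fold for whole testis and 0 for VI-VIII minus I-V, and turned whole testis minus the mean of the stages for Acrv1 (-0.245), Spaca3 (-0.399) and Zpbp (-0.0999). Without replicates 4 and 5 of stages I and II-III, VI-VIII minus I-V gave 2 calls, Spaca3 at 1.23 the second, and Acr 0.017. With single samples left out, the count for VI-VIII minus I-V was 1 to 2, that for whole testis 1 to 2, adjacent-stage calls 12 to 14 and gene pairs 12 to 17. Over the same samples, VI-VIII minus I-V ran from -0.040 to 0.061 for Spam1 and -0.055 to 0.010 for Acr, and whole testis from -0.023 to 0.045 for Zpbp and -0.0056 to 0.157 for Acrbp. Signals near the table's median had no detection call, which limits statements on low levels of Spam1 and Acrv1.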
